A study of Mus musculus with 10 samples.

Results

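AP-1 is a family of dimeric transcription factors built from FOS and JUN proteins, joined by ATF3 and the small MAF proteins. The genes described are Fos, Fosb, Fosl1, Fosl2, Jun, Junb, Jund, Atf3, Maff and Mafk, 10 of the 24620 entries of the deposited count table, found by their symbols. They were chosen with earlier results of these libraries known, so their difference between genotypes is given as a description, without a test. Of the 10, 9 had at least 1 count in some library, and 8 passed the filter on low counts that left 7753 genes for testing. Mafk stayed below that filter and Fosl1 had no count in any library.

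The data are 3′-end RNA-seq libraries (CEL-Seq2, in which molecules are tagged before amplification so that each is counted once) of muscle satellite cells, the stem cells of skeletal muscle, 3 days after injury with cardiotoxin (CTX). There were 5 control libraries (Trpm7+/+; Pax7CreERT2/+; Rosa26YFP) and 5 Trpm7 cKO libraries (Trpm7flox/flox; Pax7CreERT2/+; Rosa26YFP), from adult C57BL6 mice of 7 to 20 weeks that received 5 daily injections of tamoxifen, and each library was made from 3000 sorted YFP+ cells. TRPM7 is a Mg2+-permeable channel fused to a kinase, and the study asked how its loss changes activated MuSCs. Both groups carry the tamoxifen-dependent Cre and the YFP reporter. Cre was driven by Pax7, so the deletion is limited to cells that expressed Pax7 at the time of tamoxifen and to their progeny.

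Fos and Jun family genes are known as immediate early genes: they are switched on within minutes of a stimulus, through kinase cascades that act on factors already bound at their promoters, and their short-lived mRNAs carry AU-rich elements in the 3′UTR. FOS proteins bind DNA only as partners of JUN proteins, whereas JUN proteins can also pair with each other. Small MAF proteins have no activation domain and pair with FOS or with NRF-type factors. In satellite cells these genes are known to be induced by injury and also while muscle is dissociated and the cells are sorted.

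Promoter sequence is shown first for the genes in which a site of the CREB and ATF type (TGACGT, TGACGTCA or TGACATCA) stood just before the start of transcription. RefSeq windows of 300 bases (250 before and 50 after the start, GRCm38.p6) existed for 9 of the 10 genes, in 11 windows, and each motif was searched on both strands. The last 120 bases before the start are printed 5′ to 3′ on the gene's strand, with these sites, TATAAA and the MEF2 site in capitals, for Fos (chr12:85473770-85473889, plus strand), Jun (chr4:95052223-95052342, minus strand), Atf3 (chr1:191183334-191183453, minus strand) and 1 of the 3 Maff starts (chr15:79347400-79347519, plus strand).
Fos: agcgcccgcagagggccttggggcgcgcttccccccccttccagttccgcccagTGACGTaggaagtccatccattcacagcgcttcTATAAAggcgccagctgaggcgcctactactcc
Jun: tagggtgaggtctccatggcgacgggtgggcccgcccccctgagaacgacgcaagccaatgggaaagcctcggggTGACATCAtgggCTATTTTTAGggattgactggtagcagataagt
Atf3: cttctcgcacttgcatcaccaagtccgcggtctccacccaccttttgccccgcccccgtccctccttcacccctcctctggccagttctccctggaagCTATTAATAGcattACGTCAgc
Maff: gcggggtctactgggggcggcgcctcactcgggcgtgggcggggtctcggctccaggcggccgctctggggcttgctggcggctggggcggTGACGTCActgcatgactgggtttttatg

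In these windows TGACGT, the CRE core that CREB and ATF proteins bind, was present in Fos, Atf3 and Maff, 3 of 9 genes, and in 7.51% of all 32851 promoter windows. It overlaps the palindrome TGACGTCA, which was found in Maff and in 1.79% of all windows. TGACATCA, the variant through which ATF2 and JUN dimers are known to act on Jun, was present in Jun and at another Maff start, against 3.62% of all windows. The MEF2 site was present in Jun and Atf3, against 0.557% of all windows. In Fos the CRE core lay 66 to 61 bases before the start and TATAAA lay 33 to 28 bases before it. In Jun the TGACATCA lay 45 to 38 bases and the MEF2 site 33 to 24 bases before the start. CCAAT, the NF-Y box, was present in Jun (65 to 61 bases before the start, in lower case above), Junb and Atf3, against 37.4% of all windows, and TATAAA was present in Fos and Junb, against 13.6%. The letters TGAGTCA, the AP-1 site itself, and the CArG box, the binding site of SRF, matched no AP-1 window, against 5.20% and 1.63% of all windows. The known serum response element of Fos lies further from the start than these windows reach. A match is a description of letters and was not tested as a binding site. The starts used for the Jund and Fosl2 windows lie 1210 and 299 bases from the nearest start in the GENCODE annotation. A missing motif in these 2 genes may therefore reflect the window.

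The 3′UTRs were searched for the nonamer TTATTTATT, the core of an AU-rich element that ZFP36 proteins bind to hasten decay. It was found in 3 of the 10 genes, Fos, Fosl2 and Maff, against 632 (8.51%) of the 7429 tested genes with an annotated 3′UTR. The 30 bases around the first nonamer are printed, with the nonamer in capitals, for Fos (chr12:85477103-85477132), Fosl2 (chr5:32156871-32156900) and Maff (chr15:79358778-79358807), all on the plus strand of GRCm38.
Fos: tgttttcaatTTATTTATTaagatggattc
Fosl2: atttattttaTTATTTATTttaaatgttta
Maff: ttccacactcTTATTTATTgcacgaatcta
The shorter core ATTTA occurred at 4.91 copies per kb in the Fos 3′UTR, 4.12 in Junb, 3.28 in Maff and 3.24 in Jun, and at 0.466 per kb in Fosb. The median of the tested genes was 1.53 per kb, so these genes ranged from well above to well below it. Atf3 was at 2.53, and Jund, Fosl2, Mafk and Fosl1 lay near the median at 1.88, 1.72, 1.66 and 1.57. The Fosl2 3′UTR has 4653 bases, against a median of 1300 in the tested genes, and a longer 3′UTR has more chances of a match.

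All 10 genes have an annotated transcript on GRCm38 (GENCODE M21). Fos lies on chr12:85473890-85477273, Jun on chr4:95049034-95052222, Junb on chr8:84974484-84978718, Atf3 on chr1:191170296-191218039 and Maff on chr15:79346621-79359076. Jun, Junb and Jund are genes of 1 exon. The last 500 transcript bases, where these reads fall, shared no 31-base stretch with another gene's transcripts in 9 of the 10 genes. In Fosl1 all 500 are covered by transcripts of Ccdc85b on the opposite strand. The strand setting used in counting is not given in the sources used here, so it is not known whether reads of Fosl1 and Ccdc85b were told apart. The gene bodies of Prdx2 and Tmem184a, on the opposite strand, reach the 3′ ends of Junb and Mafk, but their transcripts share none of those 500 bases.

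Depth and composition differed between the genotypes, which touches every AP-1 value. Library totals were 914361 to 1097709 counts in control and 205986 to 581121 in Trpm7 cKO (exact permutation test over the 252 splits, two-sided p = 0.00794, the smallest it allows). Mitochondrial transcripts were 12.0% to 16.5% of counts in control and 8.82% to 10.6% in Trpm7 cKO (same exact permutation test, p = 0.00794). Trpm7 itself was at 66.6 to 90.1 CPM (counts scaled to a common library total with TMM factors, written CPM) in control and 46.4 to 101 CPM in Trpm7 cKO (same exact permutation test, p = 0.619). These 3′-end reads need not cover the deleted part of the gene and do not check the deletion. MuSC identity genes were detected in every group, all 16 of 16 listed, with summed levels of 3739 to 4296 CPM in control and 3284 to 5133 in Trpm7 cKO. Of the 16, 8 rose and 4 fell at an edgeR adjusted p below 0.05, beside 24.6% and 24.1% of all genes tested. The sums hide opposite shifts of single genes. Pax7 averaged 206 CPM in control and 474 in Trpm7 cKO, and Chodl 33.07 and 376.6. Myod1 averaged 744 and 181, and Chrnd 44.99 and 2.503. The 28 leukocyte markers summed to 411 to 667 CPM in control and 1494 to 6699 in Trpm7 cKO, and 18 of 18 tested rose. Markers low in control, such as Adgre1 (4.85 CPM on average), could pass the filter on low counts only through Trpm7 cKO. The 18 of 18 is thus partly set by that filter. Fewer transcripts per cell and fewer cells of a type cannot be told apart in such bulk libraries.

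The FOS side of the dimers is described first. All 3 FOS genes that were detected stood higher in Trpm7 cKO than in control MuSCs, with no overlap between the libraries of each genotype. Of all genes tested, 16.6% stood higher and 17.9% lower in that way, and the FOS genes were chosen on this contrast. Fos, the founding member and the most labile of them, was at 1008, 994, 1133, 1117 and 1664 CPM in the control libraries 1 to 5 and at 5671, 3629, 2897, 2331 and 3349.7 CPM in the Trpm7 cKO libraries 1 to 5. The lowest Trpm7 cKO library was above the highest control library, control replicate 5. The means were 1183 ± 276 and 3576 ± 1270 CPM (SD, n = 5 each), a log2 fold change of 1.60 ± 0.21 (standard error of the fit).

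Fosb, a close paralog of Fos, was tighter within each group. Control libraries held 587, 637, 654, 645 and 838 CPM, and Trpm7 cKO libraries 2541, 2398, 2514, 1417 and 2704 CPM. Trpm7 cKO replicate 4 was low among its group, as it was for Fos, and still exceeded every control library. The log2 fold change was 1.78 ± 0.17, on means of 672 ± 96.3 and 2315 ± 514 CPM (SD, n = 5 each).

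Fosl2, which encodes FRA2, a FOS protein without a strong activation domain, was lower in level than Fos and Fosb in all 10 libraries. Control values were 145, 239.6, 184, 171 and 176 CPM, and Trpm7 cKO values 432, 478, 489.6, 321 and 486 CPM. The groups did not overlap, and 4 of 5 Trpm7 cKO libraries lay between 432 and 489.6 CPM. The log2 fold change was 1.26 ± 0.16. Fosl1, which encodes FRA1, had 0 counts in all 10 libraries, which allows up to 3.47 CPM in the shallowest control library and up to 16.6 CPM in the shallowest Trpm7 cKO library. Those limits cover counting error only, and the Ccdc85b transcripts over its 3′ end, at 12 to 31 counts in control and 6 to 13 in Trpm7 cKO, mean that its 0 does not show whether the gene was transcribed.

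The JUN genes did not stand together. Jun, the strongest activator among them, was the AP-1 gene with the highest mean level in control MuSCs and had the smallest difference of the 8, which turned to -0.76 when counts were set per sorted cells. Its control values were 1396, 1023, 1342, 1417 and 1345 CPM and its Trpm7 cKO values 2097, 1649, 1502, 1330.5 and 2400.5 CPM. The groups overlapped, because Trpm7 cKO replicate 4 lay below 4 of the 5 control libraries. The log2 fold change was 0.46 ± 0.16, on means of 1305 ± 161 and 1796 ± 442 CPM (SD, n = 5 each), and it passed the adjusted p threshold of 0.05 in 13 of 23 alternative analyses.

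Junb encodes a weaker activator that can oppose JUN on some promoters. It was at 249, 383, 253, 270.04 and 527 CPM in control and at 1650.1, 1711.5, 2159, 1079 and 3002 CPM in Trpm7 cKO. The lowest Trpm7 cKO library exceeded the highest control library, although control replicates 2 and 5 were above the other 3. The log2 fold change was 2.51 ± 0.28, the second largest of the 8, on means of 336 ± 120 and 1920.3 ± 716 CPM (SD, n = 5 each).

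Jund, the JUN gene that is usually expressed steadily and is less dependent on stimulation, was at 1145, 1267, 969.5, 1083 and 1225 CPM in control. Trpm7 cKO values were 1622, 1815, 2422, 1369 and 2869.6 CPM. The groups did not overlap, but the gap between Trpm7 cKO replicate 4 and the highest control library was small against the range within Trpm7 cKO. The log2 fold change was 0.82 ± 0.18, and -0.48 with counts set per sorted cells.

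Atf3 and Maff, both inducible by stress, were low in control MuSCs and showed large differences. Atf3, whose product pairs with JUN proteins and often represses, was at 46.7, 37.2, 37.5, 34.1 and 63.7 CPM in control and at 211, 178, 201, 177 and 243 CPM in Trpm7 cKO. The Trpm7 cKO libraries were close to each other, with a coefficient of variation of 13.3% against 27.5% in control. The log2 fold change was 2.18 ± 0.18. Maff, a small MAF gene, was at 28.8, 56.8, 31.1, 30.1 and 34.7 CPM in control and at 285, 282, 369, 154 and 331 CPM in Trpm7 cKO. It had the largest difference of the 8, with a log2 fold change of 2.93 ± 0.23. Mafk, its close relative, had 2 to 4 counts per control library and 0 to 7 per Trpm7 cKO library, too few for a comparison at this depth.

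**Figure D1:**
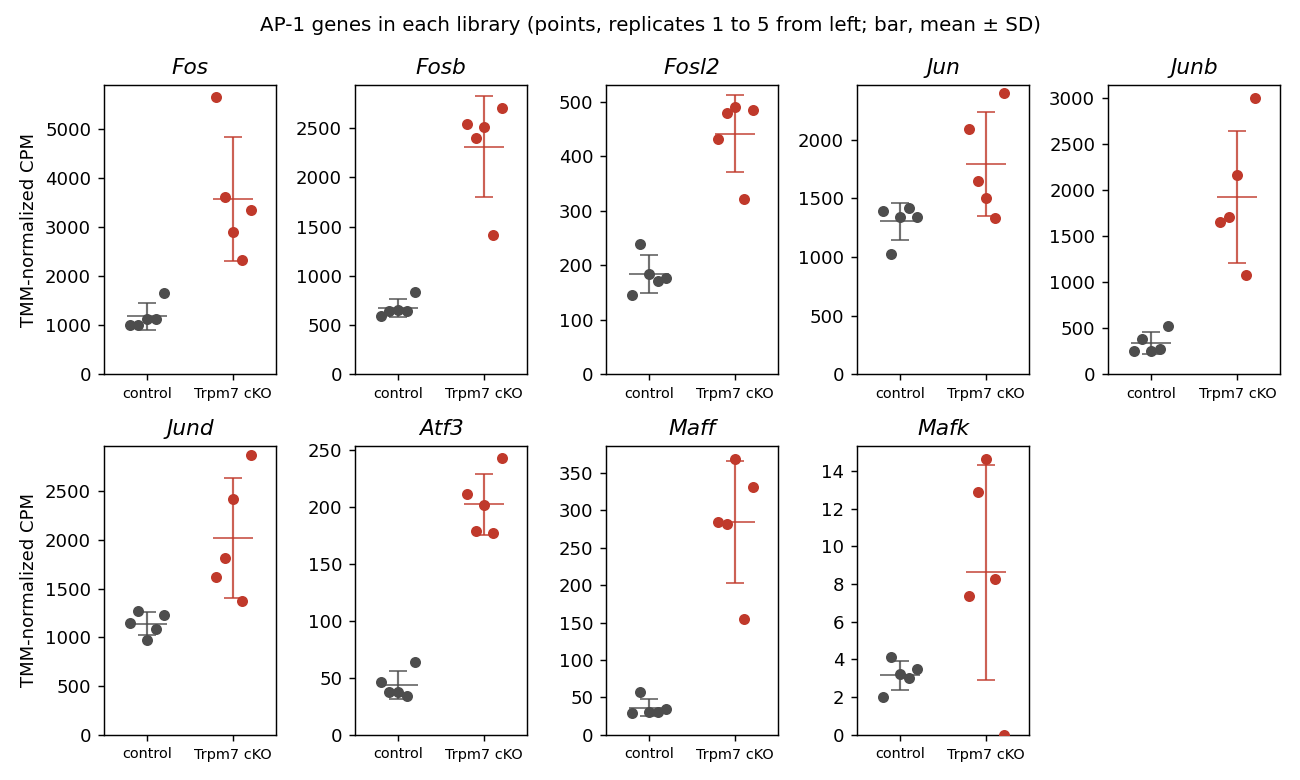
TMM-normalized CPM (linear axes from 0, a separate scale for each gene) of the 9 AP-1 genes with counts. Points are libraries, replicates 1 to 5 from left to right, and the horizontal lines with bars are means ± SD of 5 libraries. Jun and Mafk are the genes whose groups overlap, and Trpm7 cKO replicate 4 is the lowest of its group for Fos, Fosb, Fosl2, Jun, Junb, Jund, Atf3 and Maff.

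The threshold counts of these genes stand beside the background of the whole table, and nothing is read from them because the genes were chosen on this contrast. By the quasi-likelihood test of edgeR, adjusted over 7753 genes by Benjamini-Hochberg, all 8 tested AP-1 genes were called higher and 0 lower, where 24.6% of all genes were called higher, 24.1% lower and 48.7% either way. With a log2 fold change beyond 1.5 as well, 5 were called higher (Fos, Fosb, Junb, Atf3 and Maff), against 8.49% of all genes higher and 3.53% lower. Nearest to that limit, Fos at 1.60 lay just inside and Fosl2 at 1.26 just outside. Of the 8, 7 had CPM values that did not overlap between genotypes, all higher in Trpm7 cKO, against 16.6% of all genes higher and 17.9% lower without overlap. The p-values measure the spread between these libraries, and Trpm7 cKO replicates 4 and 5 share a number in their library names whose meaning is not stated.

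The make-up of the AP-1 mRNA pool differed as well as its size. Since each count is 1 molecule tagged at its 3′ end, levels of different genes can be compared without a length correction. The summed AP-1 genes took 0.422% to 0.555% of all counts in control and 0.850% to 1.496% in Trpm7 cKO. Within that sum, Jun was 26.8% ± 4.001 in control and 14.4% ± 1.70 in Trpm7 cKO (SD, n = 5 each), and Jund was 23.3% ± 2.73 and 16.2% ± 3.26. The shares of both genes were lower in every Trpm7 cKO library than in every control library, while the CPM of both were higher on average.

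Junb took the opposite course within the pool, at 6.75% ± 1.71 of AP-1 counts in control and 15.1% ± 3.26 in Trpm7 cKO. The shares of Fosb (13.7% ± 0.618 and 18.4% ± 1.32), Atf3 (0.886% ± 0.156 and 1.65% ± 0.294) and Maff (0.749% ± 0.267 and 2.25% ± 0.420) were also higher without overlap. Fos held 23.9% ± 2.76 and 28.5% ± 6.86, and Fosl2 held 3.78% ± 0.867 and 3.58% ± 0.471, and for both genes the groups overlapped. Shares within a library do not depend on the scaling of its total.

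**Figure D2:**
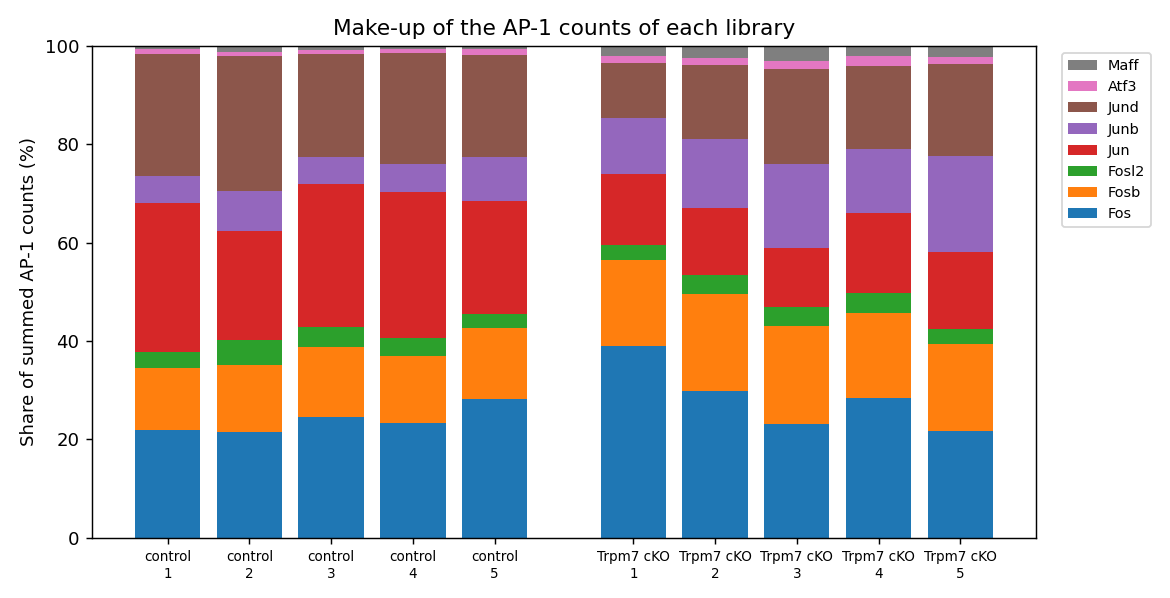
Share of each AP-1 gene in the summed AP-1 counts of a library (percent, stacked to 100), for control replicates 1 to 5 and Trpm7 cKO replicates 1 to 5. Jun takes 22.04% to 30.3% in control and 11.95% to 16.25% in Trpm7 cKO, and Junb 5.40% to 8.96% and 11.4% to 19.5%. Mafk and Fosl1 are not drawn, at no more than 0.116% of the sum.

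Ratios between partners gave the same description on raw counts. The ratio of Junb to Jun was 0.178 to 0.392 in control and 0.787 to 1.44 in Trpm7 cKO, and that of Junb to Jund was 0.217 to 0.430 and 0.788 to 1.05. Junb thus exceeded Jun in 3 of 5 Trpm7 cKO libraries and in no control library. The ratio of Fos to Jun was 0.722 to 1.24 in control and 1.40 to 2.70 in Trpm7 cKO, without overlap. The ratios of Fos to Fosb (1.56 to 1.99 and 1.15 to 2.23) and of Jun to Jund (0.808 to 1.38 and 0.620 to 1.29) overlapped. So did the ratio of summed FOS to summed JUN family counts, at 0.624 to 0.865 and 0.791 to 1.61.

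The order of levels within a library also differed. In control MuSCs the mean CPM fell from Jun (1305) to Fos (1183), Jund (1138), Fosb (672), Junb (336), Fosl2 (183), Atf3 (43.9) and Maff (36.3). The ranges of Jun and Fos, of Fos and Jund, and of Atf3 and Maff overlapped, and the other neighbours in that order did not. In Trpm7 cKO the order was Fos (3576), Fosb (2315), Jund (2019.5), Junb (1920.3), Jun (1796), Fosl2 (441.5), Maff (284) and Atf3 (202). Fos exceeded Fosb in all 5 libraries, but the ranges of each of the first 4 genes overlapped with the next in order, as did those of Fosl2 and Maff and of Maff and Atf3. Jun exceeded Fosl2 in all 5 libraries without overlap of the ranges.

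The size of these differences rests on the scaling. TMM scaling treats the bulk of genes as unchanged in share, whereas each library came from the same number of sorted cells. Without any scaling, the summed AP-1 counts per library were 4651 ± 292 in control and 5126 ± 2120 in Trpm7 cKO (SD, n = 5 each), and the groups overlapped. With counts set per sorted cells, the median over all genes was a log2 fold change of -1.15. On that scale the split of all calls was 380 higher and 5162 lower, against 1908 and 1866 with TMM. The log2 fold changes were then 1.69 for Maff, 1.19 for Junb and 1.01 for Atf3, and these 3 were past the threshold. Fosb was at 0.57, Fos at 0.49 and Fosl2 at 0.06, and Jun and Jund turned to -0.76 and -0.48, none of them past the threshold. Relative to the median of all genes on the same scale, all 8 stood higher, from 0.39 for Jun to 2.84 for Maff. Subtracting that median sets the bulk of genes to no change, much as TMM does, so these values are no separate result. Sequencing depth and RNA content per cell cannot be told apart in these totals.

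**Figure D3:**
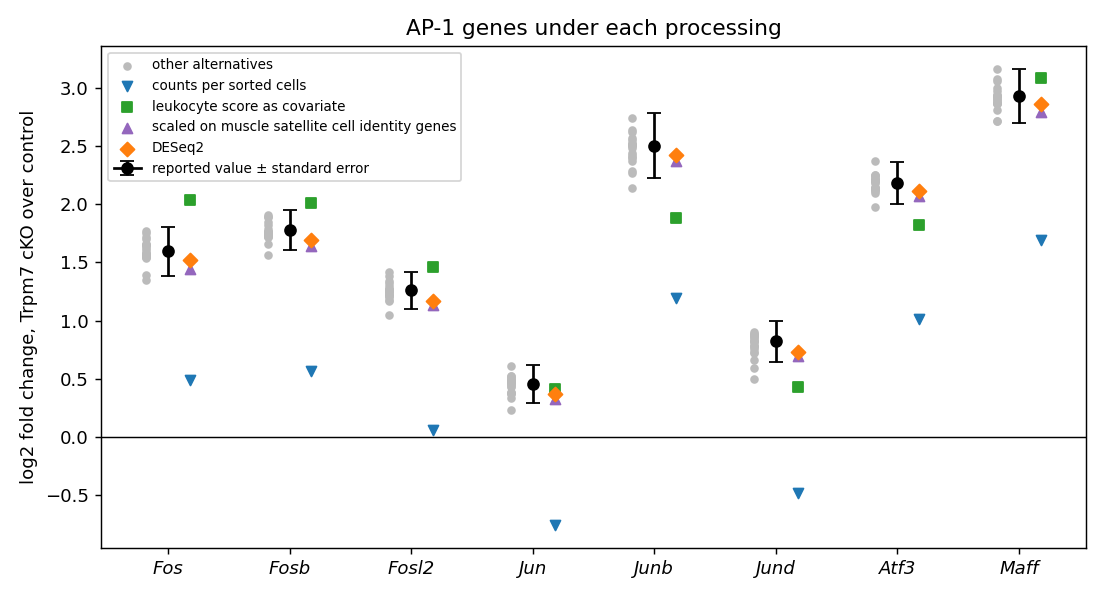
Log2 fold change (Trpm7 cKO over control) of the 8 tested AP-1 genes under each processing. Black points with bars are the reported values ± standard error, grey points the alternatives not named in the legend, and coloured symbols the named ones. Counts per sorted cells, where the median of all genes is -1.15, give the lowest value for every gene, and Jun and Jund fall below 0 there.

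Markers of other cells were higher in the Trpm7 cKO libraries, where AP-1 genes were also higher. Of the leukocyte list, Lyz2 averaged 126 CPM in control and 1158 in Trpm7 cKO, and Ptprc, which encodes the pan-leukocyte protein CD45, averaged 8.003 and 56.7. Cd3e, Cd79a and Nkg7, which mark T, B and NK cells, were at 0 in all control libraries and at no more than 2 counts in any Trpm7 cKO library. All 3 tested endothelial markers rose (summed list of 10, 6.43 to 78.7 CPM in control and 131 to 734 in Trpm7 cKO), as did all 3 tested erythroid markers (1.99 to 178 and 146 to 3277). Genes as low in control as Pecam1 (5.29 CPM on average) could pass the filter on low counts only through Trpm7 cKO. That every tested marker of these lists rose is therefore not read as a result. Among 8 tested markers of fibroadipogenic cells, 5 rose and 1 fell, beside 24.6% and 24.1% of all genes (summed list, 2954 to 4838 and 3424 to 6173). Col1a2, the most abundant of that list in control, averaged 1767 CPM in control and 1092 in Trpm7 cKO. With the leukocyte score as a covariate, the log2 fold changes were 2.04 for Fos, 2.01 for Fosb, 1.46 for Fosl2, 3.09 for Maff and 1.82 for Atf3, all past the threshold, and 1.88 for Junb, 0.43 for Jund and 0.41 for Jun, which were not. The leukocyte sums of the genotypes do not overlap, so this covariate and the genotype are only partly separable.

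Leukocyte and AP-1 sums within Trpm7 cKO are given library by library. Replicate 4 had the highest leukocyte sum of its group (6699 CPM) and the lowest AP-1 sum (8187 CPM). Replicate 2 had the lowest leukocyte sum (1494 CPM) and an AP-1 sum of 12153 CPM. Both were above every control library, where the sums were 411 to 667 CPM and 4607 to 5876 CPM. Replicate 5 was high in both, at 6346 and 15385 CPM. Replicates 1 and 3 had leukocyte sums of 3880 and 3763 CPM and AP-1 sums of 14516 and 12569 CPM. The libraries were sorted on YFP, and whether the stain for CD45, CD31 and Sca-1 that the methods describe for uninjured muscle was applied to them is not given in the sources used here. With 5 libraries a group no correlation is given, and the part of other cells in the AP-1 difference was not tested.

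**Figure D4:**
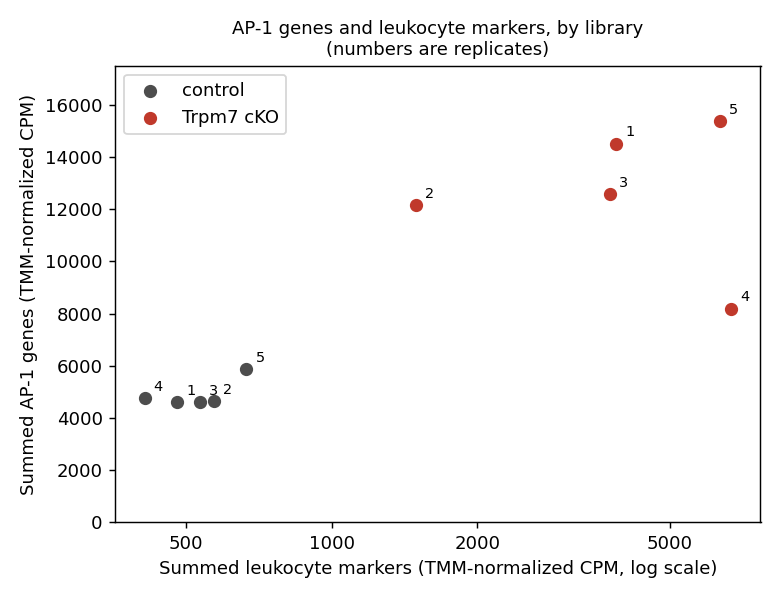
Summed AP-1 genes (TMM-normalized CPM, linear axis from 0) against summed leukocyte markers (TMM-normalized CPM, log axis) in 5 control and 5 Trpm7 cKO libraries, each point labelled with its replicate. Trpm7 cKO replicate 2 lies nearest to the control libraries on the leukocyte axis and replicate 4 on the AP-1 axis.

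Over the libraries of both genotypes, with the genotype means removed, the AP-1 genes were alike to different degrees. Pearson's r over 10 libraries was 0.94 between Fosl2 and Maff, 0.85 between Junb and Jund, 0.82 between Fosb and Junb, 0.74 between Jund and Maff, 0.72 between Junb and Maff and 0.71 between Fos and Fosb. It was 0.02 between Fos and Jund, 0.02 between Fosl2 and Jun and -0.03 between Fosl2 and Atf3. These are descriptions over libraries that also differ in depth. Trpm7 cKO replicate 4 had the lowest mean deviation over the 8 genes, 0.54 below its group on the log2 scale, and Trpm7 cKO replicate 5, the shallowest library, the highest at 0.33.

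Among 3755 genes with a mean of at least 50 CPM, those whose deviations were most like the mean AP-1 deviation were Gpx3 (r = 0.955), a secreted glutathione peroxidase, Fgfr1 (0.951), an FGF receptor, Pnrc1 (0.944), Brd2 (0.940), a reader of acetylated histones, and Chodl (0.939). The choice rests largely on 1 library: without Trpm7 cKO replicate 4, 0 of these 5 remained among the first 5, whereas leaving out any other library kept 2 to 4.

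The related lists are given next, with directions on the TMM scale. With counts set per sorted cells, 10 genes of these lists were called higher and 49 lower, and Atf4, Mafg, Bach1, Mapk3, Elk3, Creb1 and Zfp36l1, named here as higher on the TMM scale, turned to values from -0.61 to -0.11. With the leukocyte score as a covariate, 16 genes of the lists were called higher and 2 lower, against 44 and 23 without it. Of the called genes named here, Mef2a, Zfp36, Zfp36l1, Zfp36l2, Lif, Ier3, Areg, Egr1, Ccn2 and Gadd45b were past the threshold with the covariate and the others were not. The other genes of the bZIP class, to which AP-1 belongs, were mixed. Of 11 tested, 5 rose (45.5%) and 2 fell (18.2%) at an edgeR adjusted p below 0.05, beside 24.6% and 24.1% of all genes, with a median log2 fold change of 0.42 against -0.01 over all 7753 genes. Maf, a large MAF gene, rose from 30.6 ± 4.33 to 169 ± 78.4 CPM (log2 fold change 2.40, edgeR adjusted p = 3.26e-07). It is also expressed by macrophages, whose markers rose in the same libraries, and the part of those cells was not tested. Bach1, a repressor that pairs with small MAF proteins, rose from 41.4 ± 2.84 to 92.0 ± 27.0 CPM (1.07, edgeR adjusted p = 9.83e-05).

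Atf4, the main effector of the integrated stress response, rose from 394 ± 68.8 to 649 ± 135 CPM (0.71, edgeR adjusted p = 0.00128), and Mafg, the third small MAF, rose by 0.62 (adjusted p = 0.0460), a call kept in 9 of 23 alternatives. Atf2, a partner of JUN, fell from 162 ± 34.4 to 74.2 ± 31.1 CPM (-1.04, edgeR adjusted p = 0.000646), and stood at 0.18 with the leukocyte covariate (adjusted p = 0.895). Jdp2, a repressor of JUN dimers, fell by 0.70 (adjusted p = 0.0354), a call kept in 9 of the 21 alternatives that tested it and lost among others with DESeq2 (adjusted p = 0.0676). Atf1, Atf7, Nfe2l1 and Nfe2l2 had log2 fold changes of 0.04, -0.51, 0.42 and -0.20, which did not pass the test.

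Genes that act upstream of AP-1 promoters went both ways. Of 27 tested kinases and factors, 8 rose (29.6%) and 9 fell (33.3%), shares near those of all genes (24.6% and 24.1%), with a median log2 fold change of -0.03. With counts per sorted cells 0 were called higher and 17 lower. Crem, an inducible member of the CREB family, rose from 11.7 ± 2.89 to 41.4 ± 20.4 CPM (1.63, edgeR adjusted p = 0.000437). At its control level it could pass the filter on low counts only through Trpm7 cKO. Mapk3, which encodes the kinase ERK1, rose by 1.00 (adjusted p = 0.000703), and Elk3, a partner of SRF, rose by 0.94 (adjusted p = 0.000742).

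Mef2d and Mef2a, which encode factors that bind the MEF2 site printed above for Jun and Atf3, fell from 91.5 ± 7.36 to 22.9 ± 9.49 CPM (-1.96, edgeR adjusted p = 4.46e-07) and from 284 ± 27.2 to 115 ± 25.3 CPM (-1.31, adjusted p = 2.14e-06). Mef2c, another gene of that family, rose by 1.39 (edgeR adjusted p = 0.00597), stood at -0.75 with the leukocyte covariate and at 0.73 without Trpm7 cKO replicate 4, and passed the threshold in neither. Hras fell by 1.14 (edgeR adjusted p = 4.71e-06). Srf, the factor of the CArG box, had a log2 fold change of -0.43 (edgeR adjusted p = 0.133), and Creb1 rose by 0.72 (adjusted p = 0.00214). Creb1, Srf and Mef2c fall outside the rule for named genes and were picked after their values were seen.

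Among 10 tested regulators of AP-1 proteins, 2 rose and 2 fell (20% each way), shares near those of all genes (24.6% and 24.1%), with a median log2 fold change of 0.11. Fbxw7, which encodes the ubiquitin ligase subunit that marks JUN for degradation, rose from 13.4 ± 1.099 to 38.1 ± 10.4 CPM (1.40, edgeR adjusted p = 0.000131). Txn1, the thioredoxin gene, fell from 2122 ± 159 to 826 ± 229 CPM (-1.35, edgeR adjusted p = 2.16e-06).

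For the mRNA decay factors that act on AU-rich elements, 3 of 14 tested rose (21.4%) and 4 fell (28.6%), shares near those of all genes, with a median of -0.22. The 3 that rose were the ZFP36 genes of the list, of which Zfp36l1 turned to -0.11 with counts per sorted cells. Zfp36, itself an immediate early gene, rose from 341 ± 92.4 to 1252 ± 262 CPM (1.87, edgeR adjusted p = 1.67e-07), Zfp36l1 from 699 ± 57.0 to 1403 ± 427 CPM (1.01, adjusted p = 9.86e-05) and Zfp36l2 from 16.2 ± 5.88 to 87.7 ± 17.8 CPM (2.40, adjusted p = 2.24e-07). Khsrp, another decay factor, fell by 1.37 (edgeR adjusted p = 9.24e-06). Elavl1, which encodes the stabilising protein HuR, fell by 0.55 (adjusted p = 0.00136) and Tia1 by 0.68 (adjusted p = 0.00416).

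Of 17 tested textbook AP-1 target genes, 10 rose (58.8%) and 4 fell (23.5%), beside 24.6% and 24.1% of all genes, with a median log2 fold change of 0.87. With the leukocyte covariate 2 were called higher and 1 lower, and with counts per sorted cells 3 higher and 6 lower. The summed leukocyte markers were higher in the same Trpm7 cKO libraries (1494 to 6699 CPM, against 411 to 667 in control), and their part was not tested. The cytokine gene Lif rose from 8.44 ± 2.66 to 82.7 ± 38.3 CPM (3.27, edgeR adjusted p = 3.95e-07), Il6 from 6.52 ± 6.24 to 62.8 ± 20.6 CPM (3.17, adjusted p = 5.77e-06) and Ier3, an early gene that limits cell death, from 79.4 ± 21.3 to 476 ± 157 CPM (2.55, adjusted p = 2.93e-08). Genes as low in control as Lif and Il6 could pass the filter on low counts only through Trpm7 cKO. Their rise, and the 10 of 17, are thus partly set by that filter. Areg, which encodes an EGF receptor ligand, fell from 39.2 ± 8.40 to 13.6 ± 7.91 CPM (-1.53, edgeR adjusted p = 0.000450). Ezr, which encodes a linker of membrane and actin, fell by 0.77 (adjusted p = 0.000487).

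Immediate early genes outside the AP-1 family were counted last. Of 21 tested, 16 rose (76.2%) and 2 fell (9.52%), beside 24.6% and 24.1% of all genes, with a median log2 fold change of 1.54. With the leukocyte covariate 10 were called higher and 0 lower, and with counts per sorted cells 4 higher and 5 lower. Gadd45b, a stress-inducible gene, rose from 17.6 ± 3.60 to 409 ± 136 CPM (4.50, edgeR adjusted p = 2.25e-10), Ccn2, a matricellular growth factor gene, from 18.5 ± 8.25 to 213 ± 103 CPM (3.46, adjusted p = 4.46e-06) and Egr1, a zinc finger factor induced along with Fos, from 633 ± 135 to 3128 ± 832 CPM (2.31, adjusted p = 4.31e-08). Sgk1 and Rhob fell by 0.45 (edgeR adjusted p = 0.00661) and 0.39 (adjusted p = 0.0275). Myc, Klf6 and Nr4a2 were the 3 that did not pass the test, at 0.25, 0.01 and 0.26, and were named after their values were seen. The lists were set with earlier results of these libraries known, so their counts are not independent evidence of a direction.

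**Figure D5:**
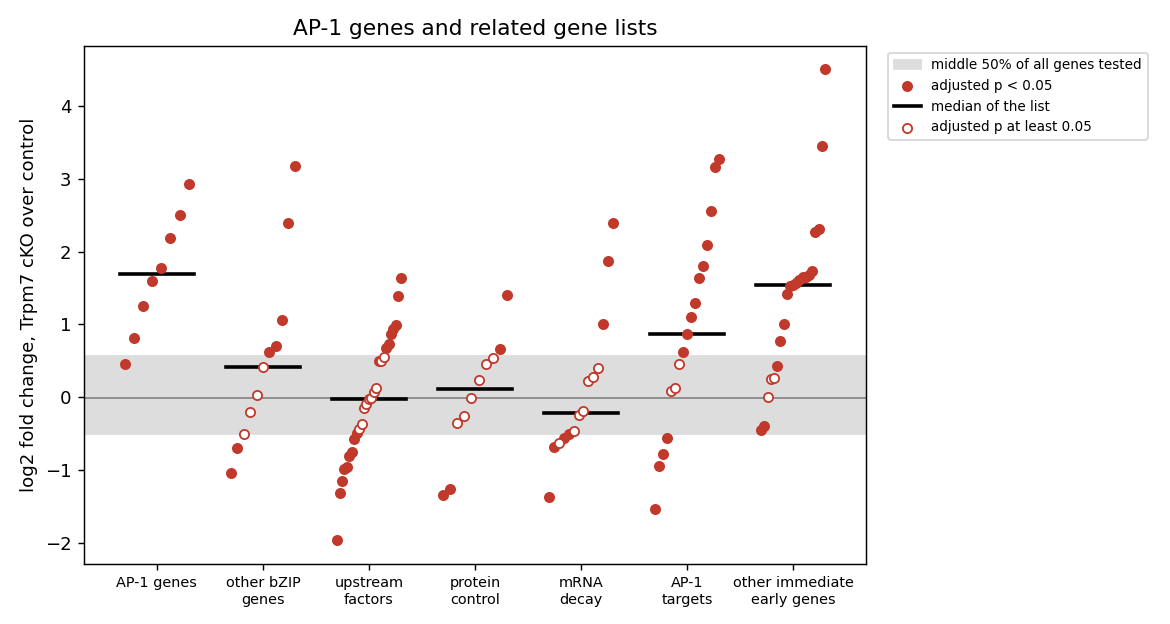
Log2 fold change (Trpm7 cKO over control) of every tested gene in the AP-1 family and 6 related lists. Each point is a gene, filled where the edgeR adjusted p was below 0.05, black lines are list medians (1.69 for AP-1, 1.54 for other immediate early genes, -0.03 for upstream factors), and the grey band holds the middle 50% of all genes tested.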

How the data were processed

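MuSC libraries were prepared by CEL-Seq2 from 3000 sorted cells each. Per the labels and methods, the authors extracted UMIs with UMI-tools 1.1.4, trimmed reads with Trim Galore 0.6.10, aligned them to GRCm38 with HISAT2 2.2.1, assigned them with featureCounts 2.0.6 and removed UMI duplicates. The deposited values are raw counts of molecules per gene. The annotation release and strand setting are not given in the sources used here. The table has 24620 entries under 24608 symbols (12 are listed on a further line, and the entry with the larger total was used), of which 23986 were found in GENCODE M21. Groups came from the sample labels.

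For differential expression edgeR 4.0.16 was used under R 4.3.3 (filterByExpr with minimum count 10 and minimum total 15, TMM, robust quasi-likelihood fit, genotype as the only term), with Benjamini-Hochberg adjustment over all 7753 genes, and the scripts were tested on simulated data. A call needed an adjusted p below 0.05, and the stricter call a log2 fold change beyond 1.5 as well. CPM values are TMM-normalized, and log2 CPM used a prior count of 2. Single values of 5 against 5 libraries were compared by exact permutation. Floors are 3 counts per library. Alternatives were other scalings, DESeq2 1.42.0, limma 3.58.1, other filters, a leukocyte covariate, thinning, a replicate block and each library left out.

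The AP-1 genes, the lists and the naming rule were chosen with earlier results of these data known. Named genes are the AP-1 genes, Trpm7, all tested bZIP partners, and in each other list up to 3 genes with the highest and up to 3 with the lowest log2 fold change among called genes without overlap and with a mean of at least 20 CPM, plus the 5 genes most like the AP-1 mean among those with at least 50 CPM. Some genes that this rule names are not reported here. No 2 libraries of a group agreed within sampling noise, so all 10 were kept.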

Additional observations from a re-analysis of the deposited data

Results flagged for a closer look

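Among 30 combinations of a measure and a group examined for a library far from its group, by Dixon's test at the 95% level, 5 were flagged, where chance flags about 1 in 20. All 5 were levels of AP-1 genes, and the 30 are more combinations than the AP-1 genes alone give. The control replicates 2 and 5 account for 4 of them. In control replicate 5, Fos was at 1664 CPM against 994 to 1133 in the other 4, and Fosb at 838 CPM against 587 to 654. In control replicate 2, Jun was at 1023 CPM against 1342 to 1417, and Maff at 56.8 CPM against 28.8 to 34.7. In Trpm7 cKO replicate 4, Fosb was at 1417 CPM against 2398 to 2704 in the other 4 libraries of that group.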

How the results depend on the processing

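Under 23 alternatives that refit the libraries, Atf3 and Maff stayed past the threshold in all 23, Fos, Fosb, Fosl2 and Junb in 22, Jund in 21 and Jun in 13. AP-1 genes called higher fell to 3 with counts per sorted cells and to 5 with the leukocyte covariate, and stood at 7 without the 2 smallest libraries (Trpm7 cKO replicates 3 and 5), a choice made after seeing the data. Over all genes, calls higher and lower were 380 and 5162 with counts per sorted cells, 414 and 144 with the leukocyte covariate, 909 and 884 after thinning to the smallest library, and 2881 higher without a filter. With the fold threshold they were 203 and 2461, 393 and 136, and 298 and 144 in the first 3 of these, 1813 and 623 without a filter, and 1576 and 437 with DESeq2. Leaving out 1 library gave 244 to 416 calls lower with the fold threshold, the highest without Trpm7 cKO replicate 4. In the 6 related lists together, calls were 10 higher and 49 lower with counts per sorted cells and 16 and 2 with the covariate. Log2 fold changes that changed sign with counts per sorted cells, where the median of all genes was -1.15, were Jun (-0.76), Jund (-0.48), Atf1 (-1.09), Atf4 (-0.54), Mafg (-0.61), Nfe2l1 (-0.76), Bach1 (-0.14), Mapk3 (-0.20), Elk3 (-0.20), Creb1 (-0.47), Myc (-0.90), Klf6 (-1.16), Nr4a2 (-0.95) and Zfp36l1 (-0.11). With the covariate they were Trpm7 (1.16), Atf1 (-0.13), Atf2 (0.18), Mafg (-0.36), Nfe2l1 (-0.43), Mapk3 (-0.21), Mef2c (-0.75), Klf6 (-0.38), Nr4a2 (-0.79) and Rhob (0.085). Atf1, near 0, was also at -0.077 scaled on MuSC identity genes, -0.039 with DESeq2, -0.16 without a filter and -0.023 after thinning, where Nfe2l2 was at 0.052. Klf6, also near 0, was at -0.086 scaled on MuSC identity genes, -0.049 with Trpm7 cKO replicates 4 and 5 summed and -0.021 without the 2 smallest libraries. Leaving out 1 library gave Atf1 -0.038 to 0.18, Klf6 -0.053 to 0.046 and Trpm7 -0.30 to 0.052, positive without Trpm7 cKO replicate 4. Scaling on MuSC identity genes and using no filter put the all-gene median at -0.11 and -0.20. The cause of these shifts was not tested. Same-numbered libraries did not deviate together (r from -0.12 to 0.18, only replicate 5 correlating best with its own number), so the replicate block is given only here: it left all 8 AP-1 genes called, with 1814 genes higher and 1758 lower. Depth limits Mafk and Fosl1, and the 205986 counts of the shallowest library limit the low genes.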
